A study of Homo sapiens with 11 samples.

Results

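The effect of the uCCNE1 short hairpin RNA (shRNA) in primed human embryonic stem cells was examined by setting the library of H1 cells that received it against the library of H1 cells that received a control shRNA. These are 2 of the 11 RNA sequencing libraries of a study of CCNE1, the gene of cyclin E1, and of a primate-specific splice form of it named pCCNE1. Both libraries came from H1 cells in primed medium, infected with lentivirus and collected 5 days later. The other primed H1 library, with the pCCNE1 shRNA, carries the same labels for line, medium and day and is set beside them. The same 3 shRNAs were used in H7 cells in 5iLA, a naive medium, and in H1 cells in t2iGo, another naive medium, which gives 6 further libraries. The last 2 libraries were untreated H7 cells, primed and 5iLA. There was 1 library per group, so no difference between primed libraries has a replicate check, and none is tested. What the letter u stands for, the sequences of the shRNAs and whether the cells were selected for infection are not stated in the sources used. Each library is a whole culture of 1 cell line, and fewer cells of a type and less RNA per cell cannot be told apart.

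Cyclin E binds the kinase CDK2 and drives cells from G1 into DNA replication, and embryonic stem cells keep it active through much of a short cell cycle. Primed human embryonic stem cells resemble the epiblast shortly before gastrulation. They hold the pluripotency factors POU5F1, SOX2 and NANOG, depend on FGF and NODAL signals, and turn readily to neural fates when BMP and NODAL signals are low.

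Levels are RPKM, reads scaled by transcript length and library size, as the authors deposited them for each gene. A difference is that of log2(RPKM + 1) between 2 libraries, which understates the change of genes at low levels. The depth behind the values was estimated from the RPKM step of a single read, at 19.9 M reads with uCCNE1, 23.5 M with pCCNE1 and 19.1 M with control shRNA. A single read on a transcript of 2 kilobases then stood for 0.0252 RPKM with uCCNE1, 0.0213 RPKM with pCCNE1 and 0.0262 RPKM with control shRNA. Each of 6 pluripotency markers and 6 markers of the primed state was at 1 RPKM or more in all 3 libraries. None of 6 naive markers reached 1 RPKM in any of them, and KLF17 was at 0 with uCCNE1 and with control shRNA. Summed over 5 neural markers the level was 56.1 RPKM with uCCNE1, 54.0 RPKM with pCCNE1 and 75.4 RPKM with control shRNA, and NES alone made up most of it, while LHX5 is among the 5. The sum over 6 fibroblast markers was 33.1 RPKM with uCCNE1, 34.8 RPKM with pCCNE1 and 51.2 RPKM with control shRNA. COL1A1 and COL1A2 made up most of it, while LUM, DCN and POSTN, at low levels, were slightly higher with uCCNE1 than with control shRNA. The 5 trophoblast markers summed to 4.80 RPKM with uCCNE1, 4.69 RPKM with pCCNE1 and 10.4 RPKM with control shRNA. KRT7 alone made up nearly all of each sum, while CDX2, GATA3, TFAP2A and CGA were at 0.202 RPKM or less in each library. The part of such cells in the results was not tested.

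CCNE1 itself, on chromosome 19, stood at 6.75 RPKM with uCCNE1, 10.5 RPKM with pCCNE1 and 11.95 RPKM with control shRNA. The uCCNE1 library was the lowest of the 3, at 56.5% of the control level, a difference of -0.74. About 274 reads with uCCNE1 and 466 with control shRNA lay behind these values. The level sums the splice forms of the gene, so no form can be followed by itself. In the naive cultures CCNE1 was at 5.27 RPKM with uCCNE1 against 14.1 RPKM with control shRNA in 5iLA, and at 5.38 RPKM with uCCNE1 against 9.65 RPKM with control shRNA in t2iGo. CCNE2, the gene of the second cyclin E, was at 2.27 RPKM with uCCNE1, 1.45 RPKM with pCCNE1 and 1.64 RPKM with control shRNA, a difference of 0.31 from control.

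Of 12116 genes with a mean of at least 1 RPKM over the 9 shRNA libraries, 75 (0.619%) were higher with uCCNE1 than with control shRNA by at least 1 on the log2 scale, and 342 (2.82%) were lower. Higher genes were thus 18.0% of those past 2-fold. That share was 32.0% after quantile normalization (94 higher, 200 lower) and 33.0% after a correction for GC content and transcript length (90 higher, 183 lower). With the pCCNE1 shRNA against the same control library, 112 (0.924%) were higher and 437 (3.61%) lower. The median gene differed by -0.07 for uCCNE1. Entries of short RNAs made up 23 of the 75 higher and 17 of the 342 lower genes, against 129 of the 12116 tested, and their values are uncertain. On the edge of the call, RRM2 at 1.02 was inside and ITM2A at 0.995 outside on the higher side, and SNURF at -1.0001 inside and PIDD at -0.9994 outside on the lower side.

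**Figure D1:**
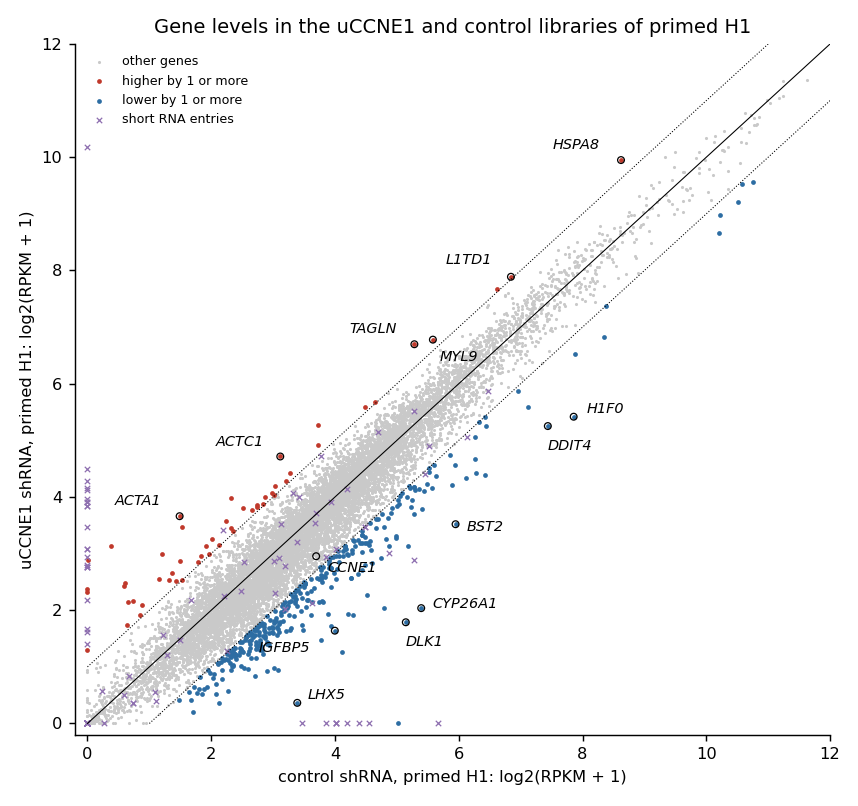
Level of each of 12116 genes in primed H1 with uCCNE1 shRNA (vertical axis) against control shRNA (horizontal axis), both as log2(RPKM + 1), 1 library each. The solid line marks equal levels and the dotted lines a difference of 1. More genes lie past the lower line (342) than past the upper one (75), and short RNA entries lie along both axes.

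GC-rich transcripts were lower in both primed knockdown libraries than in the primed control library. Both comparisons share that control library, so which library sets this pattern cannot be told. Tested genes were parted into 5 groups of 2393 by GC content. In the group with the highest, from 58.1% to 72.8%, the median difference was -0.37 for uCCNE1 and -0.54 for pCCNE1, and 8.11% of genes were lower with uCCNE1 by at least 1. In the group with the lowest GC content the medians were 0.01 for uCCNE1 and 0.17 for pCCNE1, and 0.71% of genes were lower with uCCNE1. Genes called lower had a median GC content of 59.6%, those called higher 47.8% and all tested genes 48.6%. For this reason the values after GC and length correction stand beside the gene groups where they differ.

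**Figure D2:**
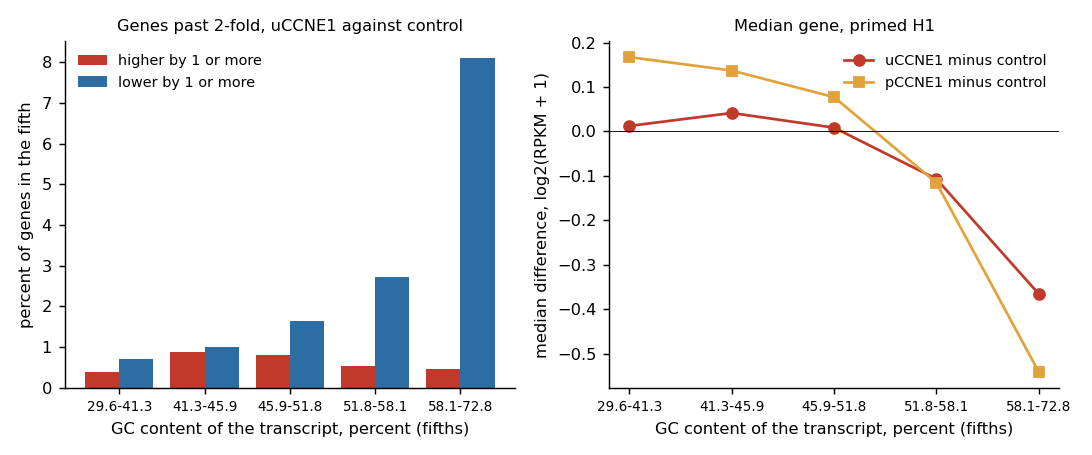
Left, percent of genes past 2-fold with uCCNE1 against control shRNA in primed H1, in 5 groups by transcript GC content (2393 genes each). Right, the median difference of log2(RPKM + 1) in the same groups for uCCNE1 and pCCNE1, each minus the same control library. The share of lower genes reaches 8.11% in the GC-richest group, and both medians are below 0 in the upper pair of groups.

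A set of 7 regulators of early neural tissue was lower with uCCNE1. Of 31 genes of a neural fate list, 16 passed the filter on low values, and these 7 were lower by at least 1 and none higher, against 2.82% lower among all genes. The median difference of the 16 was -0.66, with and without GC and length correction, beside -0.07 for all genes, and 6 remained past the fold after that correction. LHX5, a LIM homeobox factor of the forebrain on chromosome 12, was at 0.287 RPKM with uCCNE1, 0.430 RPKM with pCCNE1 and 9.48 RPKM with control shRNA, the largest difference of the list at -3.03. About 17 and 532 reads stood behind the uCCNE1 and control values. SOX21, a SOX family factor of neural progenitors, was at 6.602 RPKM with uCCNE1, 10.8 RPKM with pCCNE1 and 25.7 RPKM with control shRNA. FEZF1, a zinc finger repressor of the forebrain, was at 17.6 RPKM with uCCNE1, 9.71 RPKM with pCCNE1 and 43.7 RPKM with control shRNA. In each of these genes the control library was the highest of the 3. GBX2, a homeobox factor of the hindbrain border, differed in that it was low with uCCNE1 alone, at 0.157 RPKM with uCCNE1, 4.08 RPKM with pCCNE1 and 2.26 RPKM with control shRNA. NR2F1, a nuclear receptor of the developing cortex, was likewise at 0.332 RPKM with uCCNE1, 1.98 RPKM with pCCNE1 and 2.20 RPKM with control shRNA. After quantile normalization GBX2 and NR2F1 were short of the fold, at -0.89 and -0.77. POU3F1, the POU factor also known as OCT6, was at 2.73 RPKM with uCCNE1, 4.96 RPKM with pCCNE1 and 9.11 RPKM with control shRNA, and its difference of -1.44 shrank to -0.71 after GC and length correction. Since the filter used the mean over all 9 libraries, a gene such as LHX5, which was below 1 RPKM in every shRNA library other than the primed control, passed only through that library.

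After PCNA-AS1, the genes furthest below control with at least 5 RPKM in the higher library were CYP26A1 and DLK1. CYP26A1, on chromosome 10, encodes the enzyme that clears retinoic acid. It stood at 3.10 RPKM with uCCNE1, 6.01 RPKM with pCCNE1 and 41.0 RPKM with control shRNA, a difference of -3.36 from control. The next gene of the retinoic acid list by size was RXRA, a retinoid receptor subunit, at 4.50 RPKM with uCCNE1, 4.01 RPKM with pCCNE1 and 9.25 RPKM with control shRNA. CRABP2, a retinoic acid carrier, was at 82.3 RPKM with uCCNE1, 136 RPKM with pCCNE1 and 144 RPKM with control shRNA. Only CYP26A1 passed the fold among 19 tested genes of that list, against 2.82% lower among all genes. The list had a median of -0.26, or -0.06 after GC and length correction. DLK1, an imprinted gene on chromosome 14 that encodes a Notch ligand of unusual form, stood at 2.45 RPKM with uCCNE1, 8.89 RPKM with pCCNE1 and 34.4 RPKM with control shRNA. Its difference from control was also -3.36. The control library was the high one for both genes. In untreated primed H7 cells, in a table normalised separately, CYP26A1 was at 11.5 RPKM, DLK1 at 2.82 RPKM and LHX5 at 1.02 RPKM. Against pCCNE1, a comparison that leaves the control library out, the differences were -1.52 for DLK1, -0.77 for CYP26A1 and -0.15 for LHX5.

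**Figure D3:**
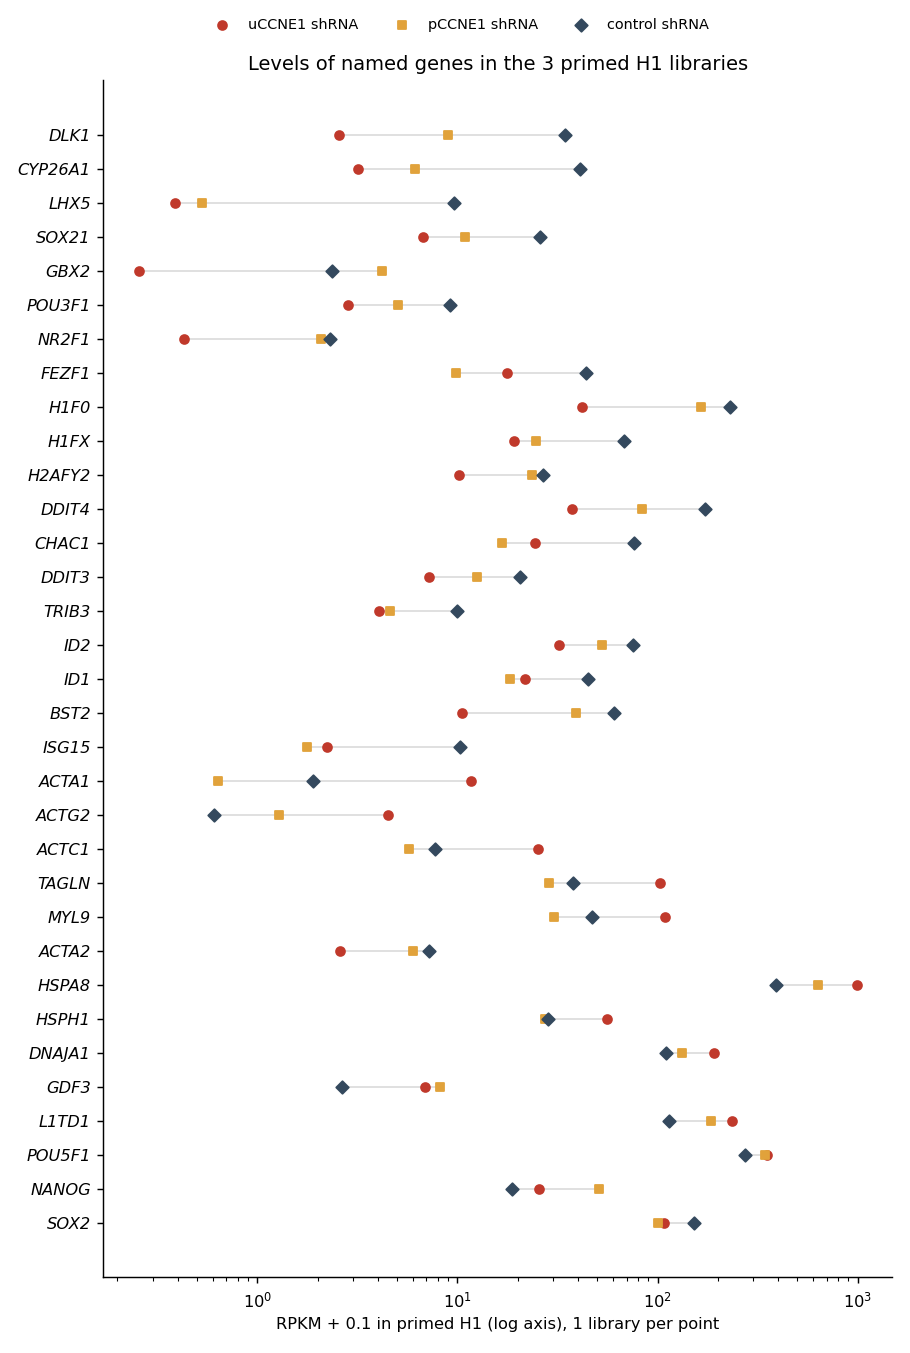
RPKM + 0.1 on a log axis for named genes in the 3 primed H1 libraries, 1 point per library (circle, uCCNE1; square, pCCNE1; diamond, control shRNA). LHX5, CYP26A1 and DLK1 are high in the control library and low in both knockdown libraries, while ACTA1, ACTC1, TAGLN and MYL9 are high with uCCNE1 and low in the other two.

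Targets, ligands and inhibitors of BMP and activin signals were among the lower genes as well. Of 14 tested genes of the BMP list (18 in the table), 4 were lower by at least 1 and none higher, against 2.82% lower among all genes, and 3 were still past the fold after GC and length correction. The median was -0.33, but -0.71 with a filter at a mean of 5 RPKM and -0.63 with a pseudocount of 0.1. ID2, an inhibitor of helix-loop-helix factors and a target of BMP signals, was at 32.1 RPKM with uCCNE1, 52.9 RPKM with pCCNE1 and 75.6 RPKM with control shRNA. ID1, of the same family, was at 21.7 RPKM with uCCNE1, 18.1 RPKM with pCCNE1 and 44.7 RPKM with control shRNA, a difference of -1.01 that fell short of the fold after scaling by median ratio, quantile or GC and length. The control library was the highest for both. FST, an extracellular inhibitor of activin, was at 8.15 RPKM with uCCNE1, 15.04 RPKM with pCCNE1 and 20.2 RPKM with control shRNA. The ligand BMP7 was at 1.10 RPKM with uCCNE1, 2.76 RPKM with pCCNE1 and 3.92 RPKM with control shRNA. Those genes had their highest level in the control library too, and BMP7 was short of the fold after median-ratio or quantile scaling.

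Among 21 tested genes of FGF and ERK signalling only EGR1, an immediate early transcription factor, passed the fold, at 20.6 RPKM with uCCNE1, 29.3 RPKM with pCCNE1 and 76.6 RPKM with control shRNA. That is 1 of 21 lower, against 2.82% lower among all genes, and the list's median was -0.20. None of 20 tested genes of the WNT list passed the fold, with a median of -0.32, and 19 of the 20 were below 0. WLS, the carrier that takes WNT proteins to the cell surface, was at 2.83 RPKM with uCCNE1, 16.7 RPKM with pCCNE1 and 17.5 RPKM with control shRNA. Here the 2 other libraries were close to each other and the uCCNE1 library stood apart.

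The uCCNE1 library also stood apart for others of the 12 genes furthest below control, of which 4 are given here. LGALS1, the sugar-binding protein galectin-1, was at 3.10 RPKM with uCCNE1, 23.8 RPKM with pCCNE1 and 26.7 RPKM with control shRNA. CST1, a secreted inhibitor of cysteine proteases, was at 1.41 RPKM with uCCNE1, 12.4 RPKM with pCCNE1 and 16.3 RPKM with control shRNA. PRTG, a membrane protein of the immunoglobulin family found in the early embryo, was at 1.79 RPKM with uCCNE1, 11.4 RPKM with pCCNE1 and 12.7 RPKM with control shRNA. In each of these the pCCNE1 and control levels lay closer to each other than to the uCCNE1 level. IGFBP5, which binds insulin-like growth factors, was lowest with uCCNE1 too, at 2.11 RPKM with uCCNE1, 26.0 RPKM with pCCNE1 and 14.97 RPKM with control shRNA. For these 4 genes the uCCNE1 library was lower by more than 2-fold than either of the other primed libraries. The same held for WLS, H1F0, BST2 and DLK1, though for DLK1 the control level was far above the pCCNE1 level. PAMR1 did not share this pattern, with 2.78 RPKM with uCCNE1, 4.79 RPKM with pCCNE1 and 18.6 RPKM with control shRNA.

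Of 10 tested linker and variant histones 3 were lower by at least 1, against 2.82% among all genes, and all 3 held after GC and length correction. H1F0, the linker histone H1.0 of slowly dividing and differentiated cells, was at 41.7 RPKM with uCCNE1, 165 RPKM with pCCNE1 and 231 RPKM with control shRNA, a difference of -2.44. H1FX, another linker histone, was at 19.1 RPKM with uCCNE1, 24.7 RPKM with pCCNE1 and 68.1 RPKM with control shRNA. H2AFY2, a macroH2A variant, was at 10.1 RPKM with uCCNE1, 23.4 RPKM with pCCNE1 and 26.7 RPKM with control shRNA. H1F0 and H2AFY2 were low with uCCNE1 alone, and H1FX with both shRNAs. Of 63 tested histones made during DNA replication 2 were higher and 1 lower, against 0.619% and 2.82% among all genes. In primed H1 histone entries made up 0.0172% of the summed RPKM with control shRNA and 0.0208% with uCCNE1. With control shRNA that share was 1.35% in 5iLA and 2.08% in t2iGo. At the low levels in primed H1 a fall of 1 is largely out of reach, so these replication histones cannot be set against the linker histones. Their median was 0.00, which became 0.30 after GC and length correction.

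Targets of ATF4, the transcription factor of the amino acid stress response, were mostly below the control level. Of 31 tested genes 9 were lower by at least 1, none was higher and 28 were below 0, against 2.82% lower among all genes. The median was -0.39, or -0.40 after GC and length correction, when 5 genes remained past the fold. DDIT4, an inhibitor of mTORC1, was at 37.1 RPKM with uCCNE1, 83.8 RPKM with pCCNE1 and 173 RPKM with control shRNA. CHAC1, which breaks down glutathione, was at 24.4 RPKM with uCCNE1, 16.6 RPKM with pCCNE1 and 75.8 RPKM with control shRNA. DDIT3, the factor CHOP, was at 7.13 RPKM with uCCNE1, 12.5 RPKM with pCCNE1 and 20.5 RPKM with control shRNA. Control was again the highest library in all 3, and the list's median was also below 0 for pCCNE1 against the same control library, at -0.67. TRIB3, a pseudokinase, was at 3.95 RPKM with uCCNE1, 4.49 RPKM with pCCNE1 and 9.85 RPKM with control shRNA, and its difference of -1.13 became -0.81 after GC and length correction. STC2, a secreted glycoprotein, was at 17.01 RPKM with uCCNE1, 14.96 RPKM with pCCNE1 and 37.9 RPKM with control shRNA. ATF4 itself went the other way, at 396 RPKM with uCCNE1, 370 RPKM with pCCNE1 and 335 RPKM with control shRNA.

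The median of the hypoxia genes was below 0 with uCCNE1 and above 0 with pCCNE1. Of 18 tested genes 16 were below 0 with uCCNE1 and 1 was lower by at least 1, against 2.82% lower among all genes. The median was -0.38 for uCCNE1 and 0.45 for pCCNE1, each against the same control. For all genes the medians were -0.07 for uCCNE1 and 0.01 for pCCNE1. BNIP3, a mitochondrial protein of mitophagy, was at 14.5 RPKM with uCCNE1, 64.9 RPKM with pCCNE1 and 31.6 RPKM with control shRNA. P4HA2, a subunit of collagen prolyl hydroxylase, was at 2.42 RPKM with uCCNE1, 8.47 RPKM with pCCNE1 and 5.68 RPKM with control shRNA. VEGFA, the angiogenic growth factor, was at 14.4 RPKM with uCCNE1, 15.3 RPKM with pCCNE1 and 27.985 RPKM with control shRNA, and its difference of -0.91 became -0.48 after GC and length correction. TXNIP, an inhibitor of thioredoxin, also had its lowest level with uCCNE1, at 7.83 RPKM with uCCNE1, 58.0 RPKM with pCCNE1 and 35.1 RPKM with control shRNA.

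Of 23 tested interferon-induced and antigen presentation genes, 2 were lower by at least 1 and none higher, against 2.82% lower among all genes. BST2, the membrane protein tetherin that holds back budding viruses, was at 10.5 RPKM with uCCNE1, 39.0 RPKM with pCCNE1 and 60.7 RPKM with control shRNA. ISG15, a ubiquitin-like modifier, was at 2.14 RPKM with uCCNE1, 1.68 RPKM with pCCNE1 and 10.2 RPKM with control shRNA. The median of the list, -0.22, came to -0.07 after GC and length correction.

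Of the 40 gene lists, that of the actin cytoskeleton and of targets of serum response factor (SRF) had the most genes past the fold on the higher side. Of its 22 tested genes, 4 (18.2%) were higher by at least 1 and 1 was lower, against 0.619% and 2.82% among all genes. ACTA1, counted among the 4, passed the filter on low values only through the primed uCCNE1 library. Without that library its mean was 0.593 RPKM. ACTA1, skeletal muscle alpha-actin on chromosome 1, was at 11.6 RPKM with uCCNE1, 0.534 RPKM with pCCNE1 and 1.81 RPKM with control shRNA, a difference of 2.17 from control with about 346 and 51 reads. TAGLN, the actin-binding protein transgelin, was at 103 RPKM with uCCNE1, 28.5 RPKM with pCCNE1 and 37.9 RPKM with control shRNA. MYL9, a regulatory light chain of myosin, was at 109 RPKM with uCCNE1, 30.2 RPKM with pCCNE1 and 46.9 RPKM with control shRNA. These 3 genes were high with uCCNE1 and lowest with pCCNE1. ACTG2, the gamma-actin of gut smooth muscle, was at 4.38 RPKM with uCCNE1, 1.19 RPKM with pCCNE1 and 0.509 RPKM with control shRNA. ACTC1, cardiac alpha-actin, which was not in the list but was among the 12 largest differences, was at 25.3 RPKM with uCCNE1, 5.603 RPKM with pCCNE1 and 7.67 RPKM with control shRNA. In all 5 genes the uCCNE1 library was the highest, and ACTG2 alone was lowest with control shRNA. The smooth muscle gene ACTA2 ran against them, at 2.50 RPKM with uCCNE1, 5.92 RPKM with pCCNE1 and 7.09 RPKM with control shRNA, and its difference of -1.21 fell just short of the fold after quantile normalization. The cytoplasmic actin ACTG1 was at 957 RPKM with uCCNE1, 1048 RPKM with pCCNE1 and 1492 RPKM with control shRNA. Thus the list's median was only 0.06, or 0.22 after GC and length correction. The muscle actins are nearly alike in coding sequence, so reads may be split among them and their single values are uncertain, while TAGLN and MYL9 are not actins.

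The CArG box, to which SRF binds, was searched on both strands in RefSeq promoters of build GRCh38.p14, taken from 250 bases before to 50 bases after the start. It was found in 6 of 17 members of the actin list with a promoter (35.3%), against 454 of 35116 promoters in the table (1.29%). That list was drawn up to hold SRF targets, so its higher share says nothing about the uCCNE1 library. The promoters of 3 higher genes are shown, with each match in capitals, since these genes were all higher with uCCNE1. TAGLN and MYL9, also higher, had no promoter in the set and were not searched. Counted from the start, the match begins at -97 in ACTA1 and at -109 in ACTC1, and ACTG2 has 2, at -110 and -73. Only the strict form of the box was searched, in 1 promoter per gene. ACTA2, which was lower, has no match to that form in this window, and looser forms were not searched. Any part of the box in these differences was not tested.
ACTA1, chr1:229434045-229434344, minus strand: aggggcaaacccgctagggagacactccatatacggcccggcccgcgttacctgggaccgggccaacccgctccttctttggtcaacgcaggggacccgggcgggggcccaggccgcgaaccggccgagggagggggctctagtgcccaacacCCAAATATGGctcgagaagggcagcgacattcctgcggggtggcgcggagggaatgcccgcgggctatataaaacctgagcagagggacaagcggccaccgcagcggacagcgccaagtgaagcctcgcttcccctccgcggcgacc
ACTC1, chr15:34795500-34795799, minus strand: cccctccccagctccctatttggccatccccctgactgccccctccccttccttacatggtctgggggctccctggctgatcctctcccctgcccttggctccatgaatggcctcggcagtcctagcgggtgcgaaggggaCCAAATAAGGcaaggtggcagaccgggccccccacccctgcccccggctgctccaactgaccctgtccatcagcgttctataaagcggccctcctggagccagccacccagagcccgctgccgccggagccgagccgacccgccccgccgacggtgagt
ACTG2, chr2:73892758-73893057, plus strand: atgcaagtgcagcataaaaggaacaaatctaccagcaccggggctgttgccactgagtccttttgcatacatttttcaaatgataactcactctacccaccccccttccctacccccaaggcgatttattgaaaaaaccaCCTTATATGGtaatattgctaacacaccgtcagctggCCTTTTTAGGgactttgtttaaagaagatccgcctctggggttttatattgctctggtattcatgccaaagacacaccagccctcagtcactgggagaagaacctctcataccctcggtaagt
A match describes the letters and not binding, and 4 listed genes that were not past the fold, ACTG1, CNN2, FLNA and SRF, also hold at least 1.

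Cytosolic chaperones leaned to the higher side with 1 of 31 genes past the fold, against 0.619% higher among all genes. HSPA8, the constitutive HSC70 chaperone on chromosome 11, was at 988 RPKM with uCCNE1, 634 RPKM with pCCNE1 and 393 RPKM with control shRNA, a difference of 1.33. Its partners followed at smaller size, with HSPH1, the nucleotide exchange factor HSP110, at 55.9 RPKM with uCCNE1, 27.3 RPKM with pCCNE1 and 28.1 RPKM with control shRNA. DNAJA1, an HSP40 co-chaperone, was at 192 RPKM with uCCNE1, 132 RPKM with pCCNE1 and 110 RPKM with control shRNA. Of 31 tested heat shock genes 24 were above 0, with a median of 0.26, while the small heat shock protein gene HSPB1 was at 29.5 RPKM with uCCNE1, 24.7 RPKM with pCCNE1 and 59.7 RPKM with control shRNA. HSPB1 has a GC content of 64.5%, and its difference of -0.99 became -0.49 after GC and length correction.

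The heat shock element was searched in the same promoters as TTCNNGAA or GAANNTTC, each of which reads the same on both strands, with overlapping matches kept. It occurred in 10 of 30 list members with a promoter (33.3%) and in 4737 of all 35116 (13.5%). The list was drawn up to hold targets of the heat shock factor HSF1, so this share says nothing about the uCCNE1 library. HSPA8 holds 4 matches and DNAJA1 3, in capitals below, while HSPH1 holds none in this window.
HSPA8, chr11:123062087-123062386, minus strand: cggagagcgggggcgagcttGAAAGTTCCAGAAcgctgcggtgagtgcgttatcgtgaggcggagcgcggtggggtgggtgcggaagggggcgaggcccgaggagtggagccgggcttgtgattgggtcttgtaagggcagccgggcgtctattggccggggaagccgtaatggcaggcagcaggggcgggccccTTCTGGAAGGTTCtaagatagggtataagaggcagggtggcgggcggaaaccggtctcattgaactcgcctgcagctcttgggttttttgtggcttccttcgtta
DNAJA1, chr9:33025023-33025322, plus strand: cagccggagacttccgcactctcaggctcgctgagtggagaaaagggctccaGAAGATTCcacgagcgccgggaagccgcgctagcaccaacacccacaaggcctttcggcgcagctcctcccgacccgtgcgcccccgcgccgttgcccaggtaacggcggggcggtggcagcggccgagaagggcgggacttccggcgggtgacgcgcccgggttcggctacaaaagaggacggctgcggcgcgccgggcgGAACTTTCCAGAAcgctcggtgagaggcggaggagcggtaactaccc
As above, these letters are no measure of binding.

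The lists of proteasome, endoplasmic reticulum and ribosome biogenesis genes had medians above 0 with no gene past the fold. Among 31 proteasome subunits none passed the fold, 29 were above 0 and the median was 0.32. Among 20 chaperones and enzymes of the endoplasmic reticulum none passed it either, 14 were above 0 and the median was 0.32. HSPA5, the BiP chaperone of that compartment, was at 185 RPKM with uCCNE1, 133 RPKM with pCCNE1 and 107 RPKM with control shRNA. Of 26 MYC and ribosome biogenesis genes 22 were above 0, with a median of 0.32 for uCCNE1 and -0.09 for pCCNE1. UTP20, a factor of ribosomal RNA processing, was at 13.95 RPKM with uCCNE1, 6.196 RPKM with pCCNE1 and 6.85 RPKM with control shRNA. POLR1B, a subunit of RNA polymerase I, was at 15.2 RPKM with uCCNE1, 8.80 RPKM with pCCNE1 and 8.33 RPKM with control shRNA. Both were high with uCCNE1 alone. These medians were at 0.29 to 0.39 under every scaling tried.

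Pluripotency genes were mostly above the control level. Of 17 tested genes of the core list 2 were higher by at least 1, against 0.619% of all genes, none was lower and 14 were above 0, with a median of 0.52 (0.47 to 0.52 over all settings tried). GDF3, a ligand of the TGF-beta family, was at 6.79 RPKM with uCCNE1, 8.09 RPKM with pCCNE1 and 2.55 RPKM with control shRNA. L1TD1, an RNA-binding protein of pluripotent cells, was at 236 RPKM with uCCNE1, 186 RPKM with pCCNE1 and 114 RPKM with control shRNA. Control was the lowest library for both. POU5F1 was at 351 RPKM with uCCNE1, 344 RPKM with pCCNE1 and 275 RPKM with control shRNA. NANOG was at 25.5 RPKM with uCCNE1, 51.2 RPKM with pCCNE1 and 18.7 RPKM with control shRNA and so was highest with pCCNE1. SOX2 went the other way, at 107 RPKM with uCCNE1, 101 RPKM with pCCNE1 and 151 RPKM with control shRNA. None of these 3 factors passed the fold. No tested gene of the naive list (15) or the primed list (19) passed it either, with medians of -0.01 for the naive list and -0.08 for the primed list, which GC and length correction moved to 0.10. A gene below 1 RPKM with control shRNA cannot be lower by 1 on this scale. ALPPL2 of the naive list was such a gene, at 0.217 RPKM with uCCNE1 and 0.355 RPKM with control shRNA.

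**Figure D4:**
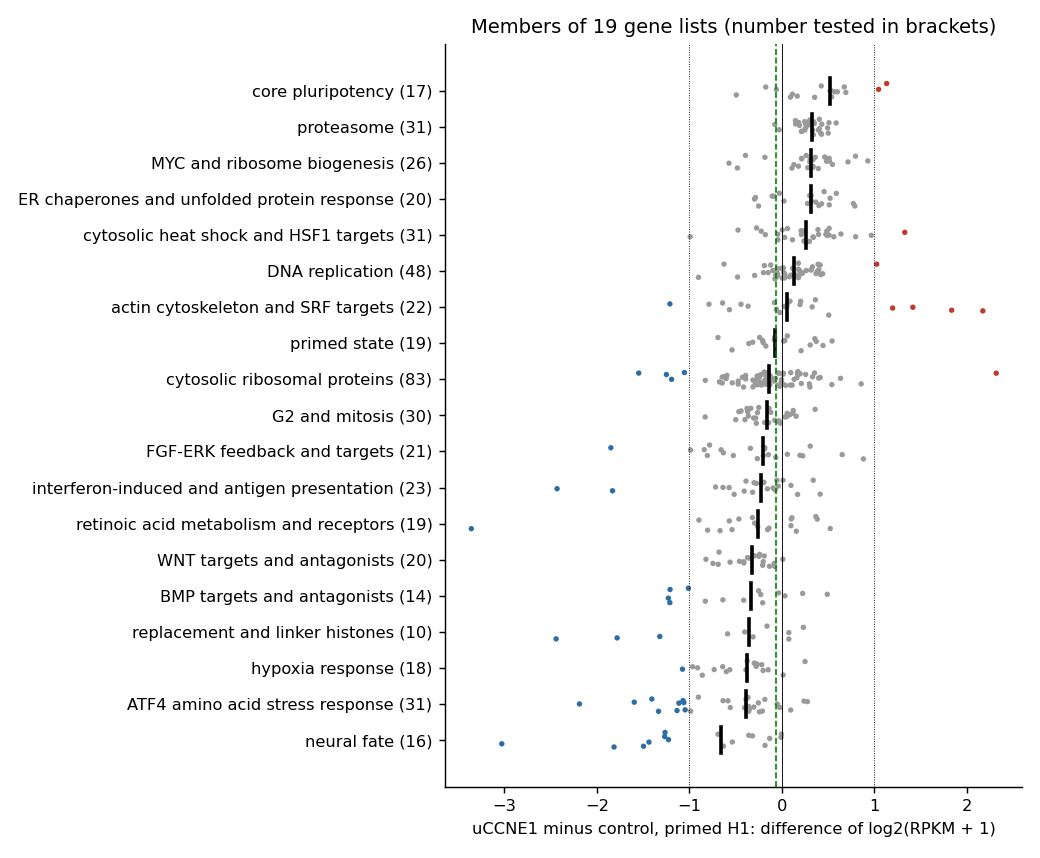
Difference of log2(RPKM + 1), uCCNE1 minus control shRNA in primed H1, for each tested member of 19 gene lists (1 point per gene; red, higher by 1 or more; blue, lower by 1 or more). Black bars mark the list medians and the dashed line the median of all genes, -0.07. The core pluripotency list has the highest median shown, 0.52, and the neural fate list the lowest, -0.66.

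The cell cycle machinery around cyclin E showed small differences. In the list of cyclin E, CDK2 and their regulators 1 of 18 tested genes was lower by at least 1, against 2.82% of all genes, and the median was 0.01. CDKN1C, the imprinted inhibitor p57, was at 0.722 RPKM with uCCNE1, 4.39 RPKM with pCCNE1 and 3.54 RPKM with control shRNA, and its difference of -1.40 became -0.99 after GC and length correction. CDKN1B, the inhibitor p27, was at 9.44 RPKM with uCCNE1, 14.955 RPKM with pCCNE1 and 16.7 RPKM with control shRNA. Both inhibitors were lowest with uCCNE1, while CDK2 was at 17.9 RPKM with uCCNE1, 25.7 RPKM with pCCNE1 and 17.7 RPKM with control shRNA. Of 48 DNA replication genes 32 were above 0 and 1 was higher by at least 1, against 0.619% of all genes, with a median of 0.13. That gene was RRM2, the small subunit of ribonucleotide reductase, short of the fold after GC and length correction at 0.97, with levels of 50.1 RPKM with uCCNE1, 28.6 RPKM with pCCNE1 and 24.1 RPKM with control shRNA. For 30 G2 and mitosis genes, none past the fold, the median was -0.16, and each of them was lower with uCCNE1 than with pCCNE1, by a median of -0.39. Of 23 tested p53 targets 2 were lower, against 2.82% of all genes, and none higher, and their median of -0.21 was 0.03 after GC and length correction and 0.13 with a filter at a mean of 5 RPKM.

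Adhesion genes were divided. Of 20 tested genes of cadherins, claudins and epithelial-mesenchymal transition 5 were lower by at least 1, against 2.82% of all genes, of which 2 held after GC and length correction, and the median was 0.01. ZEB2, a repressor of epithelial genes, was at 1.02 RPKM with uCCNE1, 3.04 RPKM with pCCNE1 and 4.12 RPKM with control shRNA. CDH11, a mesenchymal cadherin, was at 3.19 RPKM with uCCNE1, 8.59 RPKM with pCCNE1 and 8.47 RPKM with control shRNA. Both were lowest with uCCNE1, and ZEB2 was short of the fold after quantile normalization, at -0.99. CLDN4, an epithelial claudin, was at 4.93 RPKM with uCCNE1, 3.65 RPKM with pCCNE1 and 12.1 RPKM with control shRNA. EPCAM, an epithelial adhesion molecule, was at 92.7 RPKM with uCCNE1, 62.2 RPKM with pCCNE1 and 56.8 RPKM with control shRNA. EPCAM was thus highest with uCCNE1.

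Several of the largest differences belonged to entries that overlap other genes or have near-identical copies, and these are uncertain. PCNA-AS1, on the strand opposite PCNA, was listed at 31.4 RPKM with control shRNA in primed H1 and at 0 in every other library of the table, while PCNA itself was at 179 RPKM with uCCNE1, 147 RPKM with pCCNE1 and 161 RPKM with control shRNA. The read-through entry C17orf61-PLSCR3 was at 6.40 RPKM with uCCNE1 and 3.42 RPKM with pCCNE1, and near 0 with control shRNA. Its neighbour PLSCR3 was at 3.54 RPKM with uCCNE1, 4.02 RPKM with pCCNE1 and 10.7 RPKM with control shRNA, and so ran the opposite way. MAGED4 was at 7.73 RPKM with uCCNE1, 5.85 RPKM with pCCNE1 and 0.298 RPKM with control shRNA. Its copy MAGED4B was at 48.5 RPKM with uCCNE1, 48.9 RPKM with pCCNE1 and 65.1 RPKM with control shRNA. The read-through entries MUTED-TXNDC5 and RPS10-NUDT3 are of the same uncertain kind. MUTED-TXNDC5 was at 10.03 RPKM with uCCNE1, 4.02 RPKM with pCCNE1 and 1.88 RPKM with control shRNA. RPS10-NUDT3 was at 6.995 RPKM with uCCNE1, 14.96 RPKM with pCCNE1 and 1.30 RPKM with control shRNA. The remaining genes among the 12 furthest above control were FABP5, LHFP, C9orf135 and PDE4B. FABP5, a fatty acid carrier, was at 37.8 RPKM with uCCNE1, 10.8 RPKM with pCCNE1 and 12.3 RPKM with control shRNA. LHFP was at 10.95 RPKM with uCCNE1, 3.17 RPKM with pCCNE1 and 3.73 RPKM with control shRNA. Both were high with uCCNE1 alone. C9orf135 was at 14.7 RPKM with uCCNE1, 8.31 RPKM with pCCNE1 and 3.99 RPKM with control shRNA. PDE4B, which breaks down cyclic AMP, was at 6.27 RPKM with uCCNE1, 7.88 RPKM with pCCNE1 and 1.81 RPKM with control shRNA, so these last genes were above control with either shRNA.

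Set against the pCCNE1 library in place of the control, 162 genes (1.34%) were higher with uCCNE1 and 310 (2.56%) lower by at least 1. The largest differences on the higher side were 3.04 for ACTA1, 1.99 for ACTC1, 1.88 for TUBB3, 1.85 for SNX15, 1.81 for TAGLN and 1.81 for MYL9. The median of the actin list was 0.59 in this comparison, with 5 genes higher and 1 lower. For TUBB3, a neuronal tubulin, and SNX15, a sorting nexin, the pCCNE1 library was the low one. TUBB3 was at 84.6 RPKM with uCCNE1, 22.3 RPKM with pCCNE1 and 85.2 RPKM with control shRNA. SNX15 was at 9.77 RPKM with uCCNE1, 1.98 RPKM with pCCNE1 and 11.6 RPKM with control shRNA. On the lower side stood IGFBP5 at -3.12, TXNIP at -2.74, LGALS1 at -2.60 and CST1 at -2.47. LEFTY2, an inhibitor of NODAL, was at 0.932 RPKM with uCCNE1, 10.001 RPKM with pCCNE1 and 0.989 RPKM with control shRNA, so the pCCNE1 library was the one that stood apart.

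In the naive cultures the same shRNA gave differences that were shared in part with those in primed H1. In 5iLA H7 64 genes (0.528%) were higher and 598 (4.94%) lower than control, and in t2iGo H1 46 (0.38%) were higher and 77 (0.636%) lower. The median gene differed by -0.34 in 5iLA and 0.0006 in t2iGo, beside -0.07 in primed H1, so most genes were below control in 5iLA. The 5iLA libraries differed in make-up, with a summed RPKM of 139202 with uCCNE1 and 224314 with control shRNA. Short RNA entries were 20.5% of it with uCCNE1 and 27.5% with control shRNA. Their median-ratio scaling factors were 0.5744 with uCCNE1 and 0.8081 with control shRNA. The 5iLA differences given here are not rescaled, and the part of library scale in them was not tested. Of the 342 genes lower in primed H1, 50 (14.6%) were also lower in 5iLA, against 4.94% of all genes. Lower in t2iGo were 8 (2.34%), against 0.636% of all genes. The shared genes are 8.36% of the 5iLA list and 10.4% of the t2iGo list. Of the 75 higher genes, 7 (9.33%) were higher in 5iLA, against 0.528% of all genes, and 6 (8.0%) in t2iGo, against 0.38%. With short RNA entries left out, these were 5 of 52 in 5iLA and 1 of 52 in t2iGo. A total of 4 genes were lower in all 3 cultures, HIST1H2BH, NDUFB7, SNORA3 and MUTED, and none was higher in all 3. Each of them carries a limit. SNORA3 is a short RNA entry, and NDUFB7 differed by only -0.49 in primed H1 after GC and length correction. The read-through entry MUTED-TXNDC5, which holds MUTED, was higher in primed H1. HIST1H2BH is a replication histone, and of 63 such genes tested 40 were lower in 5iLA and 34 in t2iGo. Below control in each culture were H1F0, BST2, DDIT4 and LGALS1. H1F0 differed by -2.44 in primed H1, -1.17 in 5iLA and -0.26 in t2iGo. For BST2 the differences were -2.43 in primed H1, -1.63 in 5iLA and -0.42 in t2iGo. DDIT4 differed by -2.19 in primed H1, -1.55 in 5iLA and -0.32 in t2iGo. The primed difference was the largest of the 3 for each of them, LGALS1 included, at -2.75 in primed H1, -1.72 in 5iLA and -0.39 in t2iGo. TAGLN was above control in each culture, by 1.41 in primed H1, 1.35 in 5iLA and 0.57 in t2iGo. WLS, lower in primed H1, was at 12.2 RPKM with uCCNE1 against 2.24 RPKM with control shRNA in 5iLA, and at 138 RPKM with uCCNE1 against 109 RPKM with control shRNA in t2iGo. POU5F1 and NANOG were below control in both naive cultures, at 44.2 RPKM with uCCNE1 against 84.6 RPKM with control shRNA for POU5F1 in 5iLA and 18.2 RPKM with uCCNE1 against 34.6 RPKM with control shRNA in t2iGo. NANOG was at 62.0 RPKM with uCCNE1 against 130 RPKM with control shRNA in 5iLA and 8.21 RPKM with uCCNE1 against 22.9 RPKM with control shRNA in t2iGo.

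**Figure D5:**
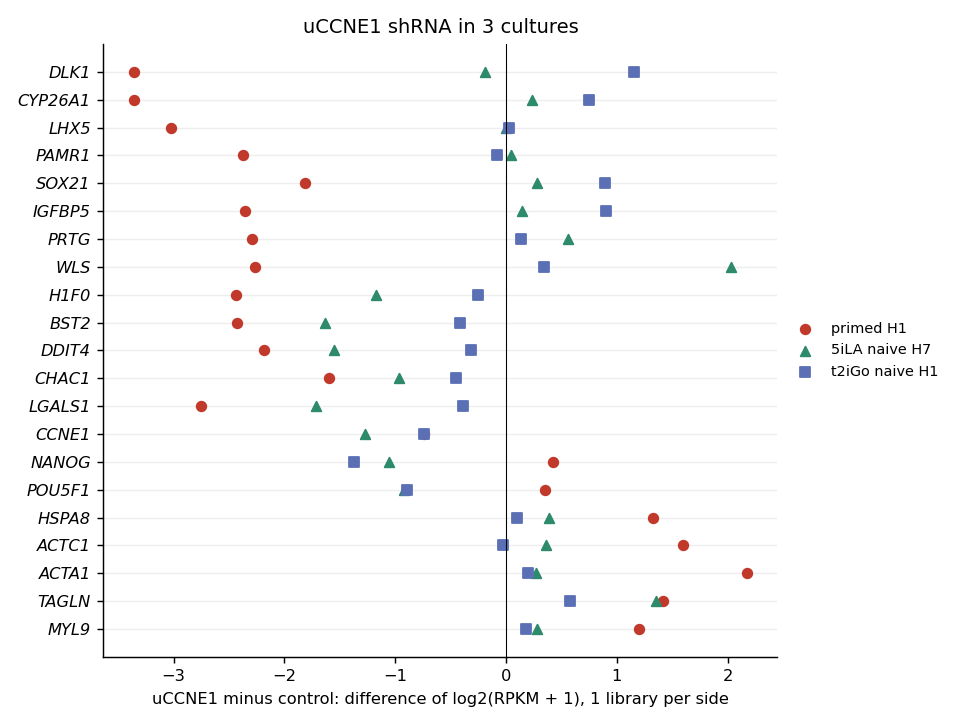
Difference of log2(RPKM + 1), uCCNE1 minus control shRNA, for 21 named genes in primed H1 (circles), 5iLA H7 (triangles) and t2iGo H1 (squares), 1 library on each side. DLK1, CYP26A1 and LHX5 lie below -3 in primed H1 alone, while NANOG and POU5F1 are above 0 in primed H1 and below 0 in both naive cultures.

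The difference between the uCCNE1 effect in primed H1 and that in the naive cultures can be tested, because the 2 naive cultures give a spread. A limma model over the 9 shRNA libraries with added terms for that difference of each CCNE1 shRNA, which leaves 2 residual degrees of freedom, called 19 of 12116 genes (0.157%) at an adjusted p under 0.05, 13 (0.107%) higher and 6 (0.0495%) lower in primed H1, and 590 (4.87%) had an unadjusted p under 0.05. Short RNA entries made up 14 of the 19. Among the other 5, CYP26A1 had a difference of -3.85 ± 0.38 (SE; limma adjusted p = 0.00426), with 0.385 RPKM with uCCNE1 against 0.177 RPKM with control shRNA in 5iLA and 6.43 RPKM with uCCNE1 against 3.41 RPKM with control shRNA in t2iGo. DLK1 had a difference of -3.84 ± 0.54 (SE; limma adjusted p = 0.0433). The calls depended on the settings, since DLK1 missed the threshold in 6 of the alternatives and CYP26A1 without a filter on low values. The remaining 3, LHX5, PCNA-AS1 and C17orf61-PLSCR3, passed the filter on low values only through 1 of the 2 primed libraries compared, so no p is given for them. Without the primed control library the mean was 0.1 RPKM for LHX5 and 0 for PCNA-AS1, and without the primed uCCNE1 library it was 0.648 RPKM for C17orf61-PLSCR3. CYP26A1 was thus lower with uCCNE1 in primed H1 and higher in both naive cultures, though its 5iLA levels were near 0. DLK1 was higher in t2iGo, at 6.41 RPKM with uCCNE1 against 2.33 RPKM with control shRNA. The calls rest on a single primed pair and on how far the shRNA effects differ between 5iLA H7 and t2iGo H1. Those cultures differ in line and medium, and their spread may also be technical. No spread among primed libraries enters the test. The next genes missed the threshold, among them PAMR1 (limma adjusted p = 0.0554) and MAGED4 (limma adjusted p = 0.0694). Neither POU5F1 nor NANOG passed. The difference was 1.26 ± 0.48 for POU5F1 (SE; limma adjusted p = 0.933) and 1.64 ± 0.60 for NANOG (SE; limma adjusted p = 0.872).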

How the data were processed

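Per the labels' protocols, total RNA came from RNeasy Mini columns and TruSeq RNA kits were used for the libraries. The authors deposited RPKM values for 23287 genes, 9 shRNA libraries in 1 table and 2 untreated libraries in another, normalised separately. TopHat2 2.3.0, Cufflinks 1.2.1 and the hg19 build are named per the submitters' processing notes, without roles or settings, and whether strand was used in counting is not given in the sources used here. Genes with a mean of at least 1 RPKM over the 9 shRNA libraries were kept, and differences were taken on log2(RPKM + 1). A gene was called at a difference of at least 1 in size. With 1 library per group there is no replicate spread. The p-values came from limma 3.58.1 in R 4.3.3 with a trend and Benjamini-Hochberg adjustment. They measure only the spread of shRNA effects between the 2 naive cultures, which differ in line and medium. On simulated data this limma model recovered most planted changes and made more false calls than its nominal rate. Transcript length and GC content came from GENCODE transcripts of build GRCh38, matched for 98.8% of tested genes, and promoters from RefSeq GRCh38.p14. Depth is an estimate, and read counts cover counting error only. The comparison, its 40 gene lists and the genes to be named were chosen with earlier results of these data known. Genes named are CCNE1, CCNE2, the 12 largest differences in each direction (short RNA entries left out, the higher library at 5 RPKM or more), up to 6 list members per direction, the smallest p of the difference between cultures and up to 6 per direction against pCCNE1. Genes outside this rule, among them PLSCR3, MAGED4B, CDK2, ACTG1 and the markers POU5F1, NANOG and SOX2, were chosen after their values were seen. The alternatives were a pseudocount of 0.1, other filters, median-ratio and quantile scaling, a lowess correction for GC content and length, leaving out short RNA entries, a fold of 1.5, and limma without the trend or on 6 libraries.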

Additional observations from a re-analysis of the deposited data

Results flagged for a closer look

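For 5 genes that are not short RNA entries, the limma model put the uCCNE1 effect in primed H1 apart from that in the 2 naive cultures. The difference was -3.85 for CYP26A1 and -3.84 for DLK1. In the naive cultures the differences from control were 0.23 in 5iLA and 0.75 in t2iGo for CYP26A1, and -0.19 in 5iLA and 1.16 in t2iGo for DLK1. It was -3.04 for LHX5, -5.02 for PCNA-AS1 and 3.40 for C17orf61-PLSCR3, a read-through entry. These last 3 are given as values only, since each passed the filter on low values through a single primed library. All 5 rest on the same single pair of primed libraries, and for all but C17orf61-PLSCR3 the primed control library held the highest level of the 9.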

How the results depend on the processing

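No paired analysis was possible because each group has 1 library, and for the same reason no replicate could be left out. The 75 higher and 342 lower genes became 41 and 123 with a filter at a mean of 5 RPKM, 145 and 635 with a pseudocount of 0.1, and 401 and 1376 at a fold of 1.5. Lower genes numbered 213 after median-ratio scaling, 200 after quantile normalization and 183 after GC and length correction. Against pCCNE1, the 162 higher and 310 lower genes became 84 and 144 with the filter at 5 RPKM and 332 and 621 with the pseudocount of 0.1, and 194 were lower after median-ratio scaling. The 19 genes of the limma difference between primed and naive cultures became 198 on the 6 control and uCCNE1 libraries, 50 with the filter at 5 RPKM, 12 after median-ratio scaling, 11 after quantile normalization, 9 without a filter and 7 after GC and length correction. CYP26A1 missed the threshold without a filter (limma adjusted p = 0.115), and DLK1 missed it in 6 of the alternatives, with limma adjusted p up to 0.383. The cause of these changes was not tested. None of the 83 named genes followed changed sign under the alternatives run for it. These were genes past the fold, together with CCNE1 and CCNE2, which were short of it. The medians of 7 of the 40 lists did under at least 1 alternative, those of the D-type cyclin, Mediator, NODAL, Polycomb, naive, primed and p53 lists, whose medians were at most 0.21 in size. Of the single genes, 19 lost the 2-fold call after GC and length correction, 15 after median-ratio scaling and 21 after quantile normalization.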
